A study of Mus musculus with 10 samples.

Results

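The genes described here make up the core identity of regulatory T cells (Tregs): the lineage transcription factor Foxp3, the long noncoding RNA Flicr beside it, the Ikaros family factors Ikzf2 and Ikzf4, the IL-2 receptor chains Il2ra and Il2rb, the surface proteins Gpr83, Nrp1 and Izumo1r, and the actin-capping protein Capg. They were chosen by gene symbol, 10 of the 19938 genes with a symbol of their own on the array, and each had 1 probe set. RNA came from spleens of female C57BL/6 mice of 9 to 14 weeks, in which a red fluorescent reporter marks Foxp3, and CD4+ reporter-positive cells were sorted by further markers. The 1 FR3 Klrg1+ array held cells low in CD62L that carried both CD69 and Klrg1. The 4 FR3 Klrg1- arrays held CD62Llo cells with CD69 but no Klrg1. The 2 FR2 arrays held CD62Llo cells that lacked both, and the 2 FR1 arrays held CD62Lhi cells that lacked both. No group received a treatment in the labels. Since every cell was sorted on a Foxp3 reporter, the presence of Foxp3 transcript is a property of the sort. The sources used here do not say whether animals were pooled.

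Foxp3 holds Tregs in their lineage and drives much of their gene programme. Ikzf2 (Helios) and Ikzf4 (Eos) are zinc finger proteins that work with it, and Flicr is a noncoding RNA from the Foxp3 locus that lowers Foxp3 expression in mouse Tregs. Il2ra (CD25) and Il2rb (CD122) bind IL-2, the growth factor on which Tregs depend and which signals through STAT5. Gpr83 is a G protein-coupled receptor, Nrp1 a receptor for semaphorins and vascular growth factor, and Izumo1r (folate receptor 4) a member of the folate receptor family, and all are known as surface markers of mouse Tregs. CD62L is a lymph node homing receptor, CD69 an activation marker, and Klrg1 a receptor of terminally differentiated lymphocytes.

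Levels are deposited RMA log2 intensities, on which a step of 1 is a doubling, and levels of different genes are not compared because their probes differ. Array medians lay between 6.15 and 6.31. The 9 grouped arrays split into sets that cut across the gates, a first of 6 arrays (FR3 Klrg1- replicates 1 and 2, FR2 and FR1) and a second of 3 (FR3 Klrg1+ and FR3 Klrg1- replicates 3 and 4). Correlations over all probe sets were 0.918 to 0.921 between FR3 Klrg1- arrays of different sets and 0.972 to 0.987 between groups within a set. Comparisons were therefore made within sets, by a limma model that carries the set as a block. A change "passed" when its p, adjusted by Benjamini-Hochberg over the 19938 genes, was under 0.05. The 7 measured T cell markers averaged 10.90 on the FR3 Klrg1+ array and 10.96 to 11.62 on the other grouped arrays. Of the T cell markers, Cd4 stood at 10.10 on the FR3 Klrg1+ array, at 9.86 and 10.03 on the FR3 Klrg1- arrays of the second set, and between 11.04 and 11.65 in the first. The Cd69 transcript did not follow the CD69 gate. It stood at 9.86 on the FR3 Klrg1+ array, 10.24 and 9.73 in FR3 Klrg1- of the second set, 12.02 and 12.16 in FR3 Klrg1- of the first set, 11.86 and 12.17 in FR2, and 12.11 and 12.41 in FR1, and it did not pass in any comparison. A further array was titled FR3 but carried the marker text of FR1. It read 12.41 for Klrg1, against 12.33 on the FR3 Klrg1+ array and at most 7.47 on the Klrg1- arrays, and it entered no comparison.

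Upstream sequences are given for 4 members, to show the locus from which both Flicr and Foxp3 are transcribed and the neighbours Gpr83 and Izumo1r. In FR3 Klrg1- against FR1, Gpr83 fell and Izumo1r rose (-1.07 and 0.86). Against FR2 both changes were above 0 (0.45 and 0.86), and in FR3 Klrg1+ both were below 0 (-1.90 and -0.23). Each is the 250 bases before an annotated start, 5′ to 3′ on the gene's own strand, from RefSeq on GRCm38.p6. Windows were found for 7 of the 10 members, and Foxp3 had 2 starts, of which the upstream one is shown. Capitals mark matches, on either strand, to TATAAA (the TATA box), TTCNNNGAA (the STAT motif), TGTGGT (the RUNX motif) or GTAAACA (a forkhead motif).
Flicr, chrX:7573350-7573599, strand +: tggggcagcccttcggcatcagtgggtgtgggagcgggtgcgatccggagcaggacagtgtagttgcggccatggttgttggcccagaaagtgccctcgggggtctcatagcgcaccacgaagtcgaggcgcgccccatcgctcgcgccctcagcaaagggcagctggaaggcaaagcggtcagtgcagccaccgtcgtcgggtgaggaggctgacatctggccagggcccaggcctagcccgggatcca
Foxp3, chrX:7579426-7579675, strand +: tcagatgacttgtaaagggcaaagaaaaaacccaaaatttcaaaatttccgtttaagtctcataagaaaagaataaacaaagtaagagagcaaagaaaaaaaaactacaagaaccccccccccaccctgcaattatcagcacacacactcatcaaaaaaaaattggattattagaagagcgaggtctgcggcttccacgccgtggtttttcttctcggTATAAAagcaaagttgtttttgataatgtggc
Gpr83, chr9:14859960-14860209, strand +: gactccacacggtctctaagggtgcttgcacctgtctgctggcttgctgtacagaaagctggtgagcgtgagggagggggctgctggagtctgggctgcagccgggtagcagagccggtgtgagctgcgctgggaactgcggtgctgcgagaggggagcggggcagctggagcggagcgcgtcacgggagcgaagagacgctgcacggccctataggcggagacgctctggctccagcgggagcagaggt
Izumo1r, chr9:14903768-14904017, strand -: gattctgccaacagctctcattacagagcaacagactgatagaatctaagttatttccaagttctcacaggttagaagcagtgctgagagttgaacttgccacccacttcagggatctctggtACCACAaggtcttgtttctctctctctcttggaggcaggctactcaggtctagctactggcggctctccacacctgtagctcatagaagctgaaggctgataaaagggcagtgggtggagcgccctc
The Foxp3 window held TATAAA, which 12.4% of 32851 such windows in the genome hold, and the Izumo1r window held a RUNX match, as 14.0% do. No STAT match (7.02% of windows) or forkhead match (3.17%) was in these 4 windows. The GC content was 66.8% for Flicr, 37.6% for Foxp3, 66.8% for Gpr83 and 50.0% for Izumo1r, against a median of 52.4% over all windows. In the annotation Flicr and Foxp3 are neighbours on the same strand of the X chromosome, their intervals overlap, and the Foxp3 window lies inside the Flicr interval. Flicr also overlaps Ppp1r3f, and Foxp3 overlaps Ccdc22. Whether the array's probes for these genes lie in shared stretches was not checked here.

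Foxp3 and Ikzf4 did not pass in any of the 4 comparisons. In FR3 Klrg1+ against FR3 Klrg1-, 1 member rose (Capg) and 2 fell (Flicr and Gpr83), where 4.96% of all genes passed, 2.14% as higher and 2.82% as lower. In FR3 Klrg1- against FR1, 3 rose (Ikzf2, Nrp1 and Izumo1r) and 3 fell (Flicr, Il2ra and Gpr83), with 8.19% of all genes called (4.39% higher, 3.79% lower). In FR3 Klrg1- against FR2, 2 rose (Il2rb and Izumo1r) and none fell, with 4.75% of all genes called (2.81% higher, 1.94% lower). At an unadjusted p under 0.05, 5 members differed there. That count was 4 in FR3 Klrg1+ against FR3 Klrg1-, 9 in FR3 Klrg1- against FR1 and 7 in FR2 against FR1. Many other genes reached that limit, 3425 of all genes in FR2 against FR1. In FR3 Klrg1- against FR2, Gpr83 ranked 2297 of all genes by p, at an unadjusted p of 0.0246 (limma). The unadjusted counts are therefore a description only. In FR2 against FR1, 2 rose (Ikzf2 and Nrp1) and 2 fell (Il2ra and Gpr83), with 4.26% of all genes called (1.96% higher, 2.30% lower). The median log2 fold change of the members was -0.09, 0.33, 0.25 and -0.03 in this order, against 0.00, 0.02, 0.00 and 0.02 over all genes. These comparisons share arrays, so they are not independent of each other.

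Without the array set in the limma fit none of the 10 members passed in any comparison. Leaving out FR2 replicate 1 took the 4 calls of FR2 against FR1 to 2, and leaving out FR2 replicate 1 or 2 or FR3 Klrg1- replicate 1 or 2 took the 2 calls of FR3 Klrg1- against FR2 to 1. FR3 Klrg1+ had 1 array and was assumed to vary like the other groups.

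**Figure D1:**
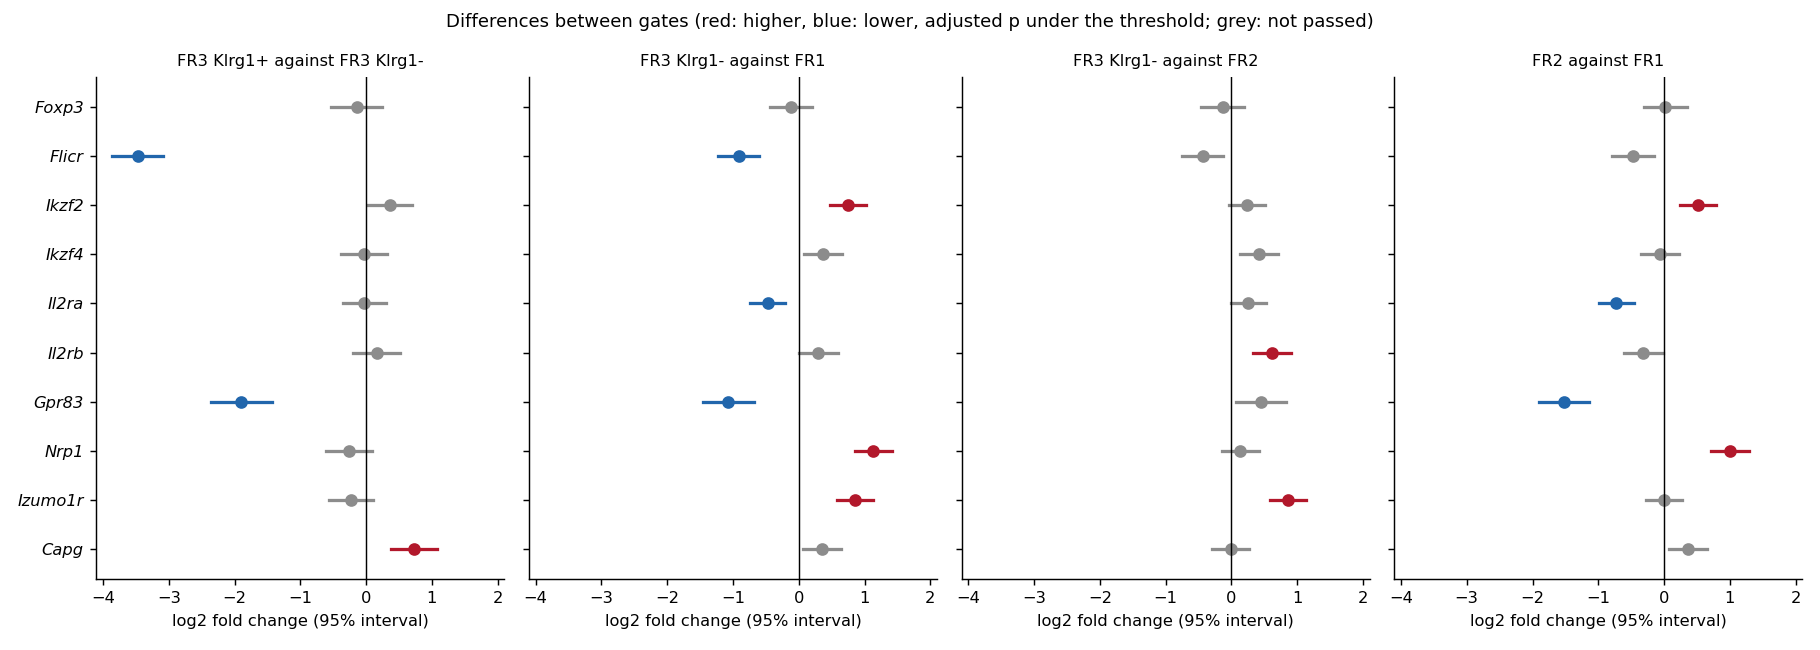
Log2 fold change of each gene (point) with its 95% interval (line) from the limma model blocked on array set, in 4 comparisons. Red and blue points passed at an adjusted p under 0.05 as higher and lower in the group named first, and grey points did not pass; Flicr in FR3 Klrg1+ lies farthest from 0, at -3.47.

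Foxp3 kept close to the same level across the gates of each set. It stood at 9.64 on the FR3 Klrg1+ array, 9.63 and 9.95 in FR3 Klrg1- of the second set, 10.70 and 10.65 in FR3 Klrg1- of the first set, 10.91 and 10.71 in FR2, and 10.65 and 10.93 in FR1. Within the first set the groups spanned 0.29 in all, and the FR3 Klrg1+ value lay inside the range of its set's FR3 Klrg1- arrays. The change was -0.15 ± 0.18 (SE, 95% interval -0.54 to 0.25) in FR3 Klrg1+ against FR3 Klrg1-, and -0.12 ± 0.15 (-0.44 to 0.21) in FR3 Klrg1- against FR1. In FR3 Klrg1- against FR2 it was -0.14 ± 0.15 (-0.46 to 0.19), and in FR2 against FR1 it was 0.02 ± 0.15 (-0.30 to 0.34). The lowest adjusted p of these was 0.717. These intervals do not exclude smaller changes. In bulk samples, fewer cells with a transcript and less of it per cell cannot be told apart.

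**Figure D2:**
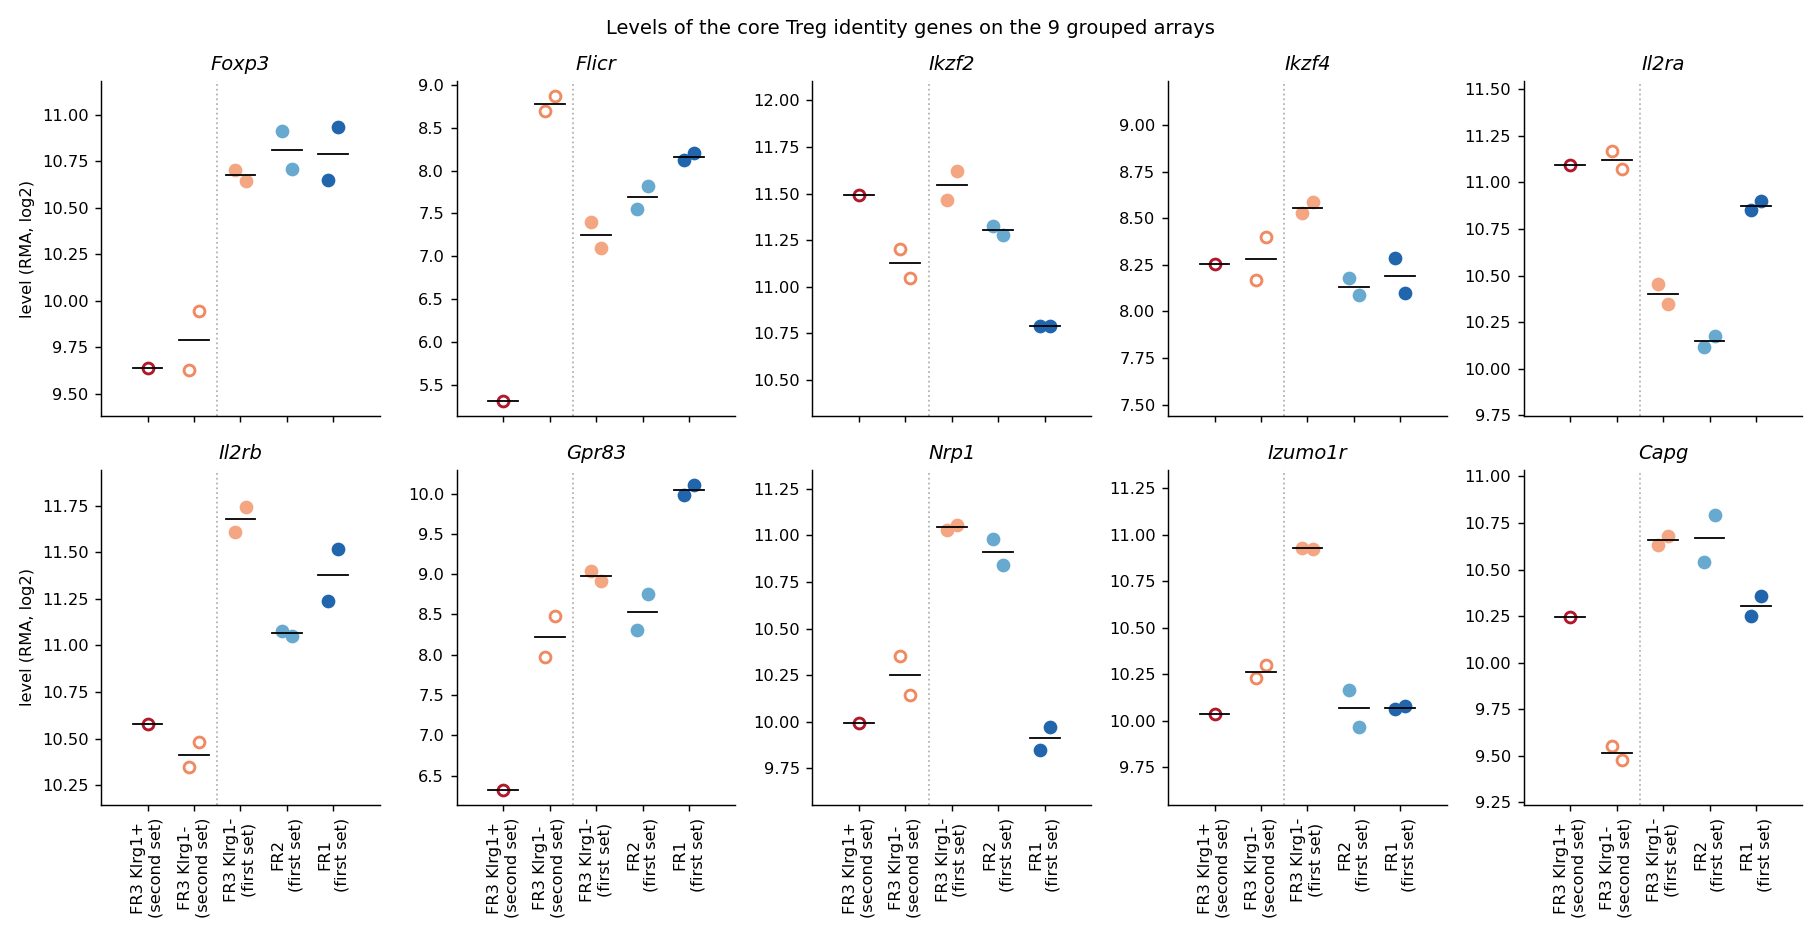
Level of each gene on each grouped array (RMA, log2; points) with the mean of each group within its set (bar); open points are the second array set, filled points the first, and each panel has its own axis range. Foxp3 differs mainly between the sets, and Flicr and Gpr83 are lowest on the FR3 Klrg1+ array at 5.31 and 6.33. Within the first set, Ikzf2 and Nrp1 are lowest in FR1.

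Between the sets, FR3 Klrg1- cells of the same gates differed in most members. Replicates 3 and 4 were lower than replicates 1 and 2 in 8 members and higher in 2, Flicr (by 1.53) and Il2ra (by 0.72). The differences below 0 ran from -0.27 for Ikzf4 to -1.26 for Il2rb, with Foxp3 at -0.89, while the quartiles over all genes were -0.26 and 0.29. The sets were found from the values, so these differences are given with no test.

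Flicr showed the largest fall of all 19938 genes on the 1 FR3 Klrg1+ array. Its level was 5.31 on the FR3 Klrg1+ array, against 8.70 and 8.87 in FR3 Klrg1- of the second set. In the first set it was 7.40 and 7.10 in FR3 Klrg1-, 7.55 and 7.82 in FR2, and 8.12 and 8.20 in FR1. The FR3 Klrg1+ array was below every other grouped array, and within the first set the 3 groups did not overlap, with FR3 Klrg1- lowest and FR1 highest. In FR3 Klrg1+ the change was -3.47 ± 0.18 (SE, n = 1 and 2), 11.1-fold lower, with an adjusted p of 8.56e-08 (limma). The next largest falls in that comparison were those of the follicle homing receptor Cxcr5 (-2.95 ± 0.18) and the lymph node homing receptor Ccr7 (-2.42 ± 0.16). Flicr lay at percentile 24.4 of the genes on the FR3 Klrg1+ array and at percentiles 84.6 and 87.3 on the FR3 Klrg1- arrays beside it. No detection call comes with these values, so a level that low may be background and the fold an understatement. With 1 FR3 Klrg1+ array, the SE of that change carries only the spread of the other groups. The array placed in no group, which also read high for Klrg1 (12.41), had Flicr at 6.52.

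In the first set Flicr fell by 0.91 in FR3 Klrg1- against FR1 (SE 0.15, n = 2 and 2, adjusted p = 0.000707, limma). The steps within that difference did not pass by themselves. They were -0.44 ± 0.15 (adjusted p = 0.122) in FR3 Klrg1- against FR2 and -0.47 ± 0.15 (adjusted p = 0.0874) in FR2 against FR1, and that step passed once dim genes were left out (adjusted p = 0.0384). Without the array set in the fit the Klrg1 difference was -2.71 (adjusted p = 0.216), and that of FR3 Klrg1- against FR1 was -0.15 (adjusted p = 0.898), since Flicr is higher in the second set. Leaving out each FR3 Klrg1- array of the second set in turn gave -3.56 and -3.39 for the Klrg1 difference.

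**Figure D3:**
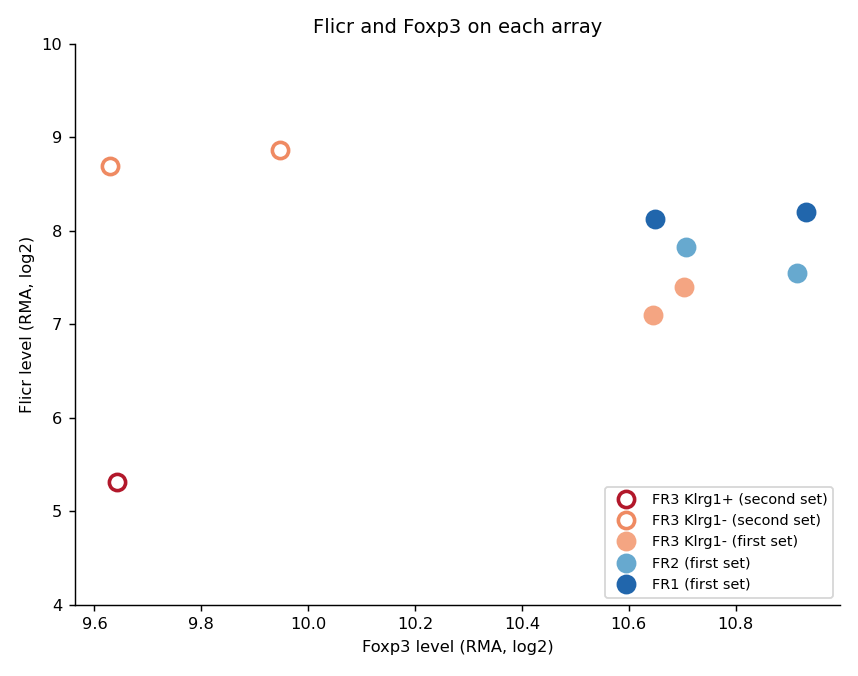
Flicr level against Foxp3 level on each grouped array (both RMA, log2), coloured by group, with the second array set in open points. The FR3 Klrg1+ array has a Foxp3 level of 9.64, between those of the FR3 Klrg1- arrays of its set, at a Flicr level of 5.31; in the first set the FR3 Klrg1- arrays are lowest in Flicr and the FR1 arrays highest, over a Foxp3 range of 0.29.

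Of 6 other genes beside Foxp3, 0 passed in FR3 Klrg1+ (limma), where 4.96% of all genes were called, so the count does not set them apart. Their changes lay between -0.33 for Ccdc22 and 0.61 for Gpkow, against -3.47 for Flicr. Ppp1r3f, a regulatory subunit of protein phosphatase 1, stood at 7.05 on the FR3 Klrg1+ array and at 7.04 and 7.12 in FR3 Klrg1- of that set. Ccdc22, a subunit of an endosomal sorting complex, fell by 0.56 in FR3 Klrg1- against FR1 (SE 0.16, adjusted p = 0.0379) and by 0.80 against FR2 (SE 0.16, adjusted p = 0.00815), the only one of the 6 to pass in these comparisons. In FR2 against FR1, none of the 6 passed. Of all genes, 8.19% were called in FR3 Klrg1- against FR1, 4.75% against FR2 and 4.26% in FR2 against FR1.

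Within the first set, the Helios gene Ikzf2 was higher in CD62Llo cells than in FR1. Its levels were 11.49 on the FR3 Klrg1+ array and 11.20 and 11.05 in FR3 Klrg1- of the second set, then 11.47 and 11.62 in FR3 Klrg1- of the first set, 11.33 and 11.28 in FR2, and 10.79 on both FR1 arrays. Groups did not overlap within either set. The rise was 0.75 ± 0.13 (SE, adjusted p = 0.00114, limma) in FR3 Klrg1- against FR1 and 0.51 ± 0.13 (adjusted p = 0.0345) in FR2 against FR1. The change in FR3 Klrg1- against FR2 (0.24 ± 0.13, adjusted p = 0.409) and in FR3 Klrg1+ against FR3 Klrg1- (0.37 ± 0.16, adjusted p = 0.207) did not pass. The FR2 call was lost when FR1 replicate 1 or 2, FR2 replicate 1 or 2, or FR3 Klrg1- replicate 1 or 2 was left out (adjusted p 0.0564 to 0.258), at changes of 0.49 to 0.54.

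The Eos gene Ikzf4 did not pass in any comparison. Its change was smaller than that of Ikzf2 except in FR3 Klrg1- against FR2 (0.42 against 0.24). It stood at 8.25 on the FR3 Klrg1+ array and at 8.17 and 8.40 in FR3 Klrg1- of the second set. In the first set it was 8.53 and 8.59 in FR3 Klrg1-, 8.18 and 8.09 in FR2, and 8.29 and 8.10 in FR1. The FR3 Klrg1- arrays of the first set lay above all FR2 and FR1 arrays, and in the second set the groups overlapped. The changes were 0.42 ± 0.14 (SE, adjusted p = 0.0999, limma) in FR3 Klrg1- against FR2 and 0.37 ± 0.14 (adjusted p = 0.135) against FR1. The first of these passed when dim genes were left out (adjusted p = 0.0448) or arrays were weighted (0.0327). The changes in FR3 Klrg1+ against FR3 Klrg1- (-0.03 ± 0.17) and in FR2 against FR1 (-0.06 ± 0.14) were within their SE. Of the other 3 Ikaros family genes, Ikzf1 (-0.69 ± 0.13, adjusted p = 0.00231), the founding member of the family, and Ikzf3 (-0.75 ± 0.14, adjusted p = 0.00198), the Aiolos gene, fell in FR3 Klrg1- against FR1, where Ikzf2 rose. None of the 3 passed in the other comparisons, which called 4.26% to 4.96% of all genes. FR3 Klrg1- against FR1 called 8.19%.

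The IL-2 receptor chains passed in different comparisons, and within the first set both were lowest in FR2. Il2ra, the chain that gives high affinity, stood at 11.09 on the FR3 Klrg1+ array, 11.17 and 11.07 in FR3 Klrg1- of the second set, 10.46 and 10.34 in FR3 Klrg1- of the first set, 10.12 and 10.17 in FR2, and 10.85 and 10.90 in FR1. Within the first set its groups did not overlap, FR2 being lowest and FR1 highest, and in the second set they overlapped. Il2ra fell by 0.73 in FR2 against FR1 (SE 0.13, adjusted p = 0.00335, limma) and by 0.47 in FR3 Klrg1- against FR1 (SE 0.13, adjusted p = 0.0279). The change was 0.25 ± 0.13 (adjusted p = 0.354) in FR3 Klrg1- against FR2 and -0.03 ± 0.15 (95% interval -0.36 to 0.30) in FR3 Klrg1+ against FR3 Klrg1-. The call against FR1 in FR3 Klrg1- was lost without FR1 replicate 1 or 2 or FR3 Klrg1- replicate 1 or 2 (adjusted p 0.0997 to 0.259), and that in FR2 without FR2 replicate 1 (adjusted p = 0.058).

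Il2rb, the signalling chain shared with the IL-15 receptor, stood at 10.58 on the FR3 Klrg1+ array, 10.35 and 10.48 in FR3 Klrg1- of the second set, 11.61 and 11.74 in FR3 Klrg1- of the first set, 11.08 and 11.05 in FR2, and 11.24 and 11.52 in FR1. Within the first set FR3 Klrg1- was highest and FR2 lowest, with no overlap. Il2rb rose by 0.61 ± 0.14 (SE, adjusted p = 0.0172, limma) in FR3 Klrg1- against FR2. The call was lost without FR2 replicate 1 or 2 or FR3 Klrg1- replicate 1 or 2 (adjusted p 0.0823 to 0.176), at changes of 0.55 to 0.68. The changes in FR3 Klrg1+ against FR3 Klrg1- (0.16 ± 0.17), in FR3 Klrg1- against FR1 (0.30 ± 0.14) and in FR2 against FR1 (-0.31 ± 0.14) did not pass.

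Of 14 further genes of IL-2 receptor signalling, 12 were measured, and 1 passed in any comparison, close to the 8.19% of all genes called in the comparison where it passed. That gene was Cish, a feedback inhibitor induced by STAT5, which rose by 0.52 ± 0.13 in FR3 Klrg1- against FR1 (SE, adjusted p = 0.0195, limma). The median change of the list was -0.03 in FR3 Klrg1+ against FR3 Klrg1-, -0.11 in FR3 Klrg1- against FR1, -0.12 in FR3 Klrg1- against FR2 and 0.08 in FR2 against FR1.

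Gpr83 was the member that fell most between CD62Llo and CD62Lhi cells, and it fell again with Klrg1. Its levels were 6.33 on the FR3 Klrg1+ array, 7.97 and 8.48 in FR3 Klrg1- of the second set, 9.04 and 8.92 in FR3 Klrg1- of the first set, 8.30 and 8.76 in FR2, and 9.98 and 10.11 in FR1. The FR1 arrays were the highest and the FR3 Klrg1+ array the lowest of all 9, with no overlap between groups in either set. In FR3 Klrg1+ the fall was -1.90 ± 0.22 (SE, n = 1 and 2), 3.72-fold lower, with an adjusted p of 0.000182 (limma). Against FR1 it was -1.07 ± 0.18 in FR3 Klrg1- (adjusted p = 0.000958) and -1.52 ± 0.18 in FR2 (adjusted p = 0.000115). The difference of FR3 Klrg1- from FR2 was 0.45 ± 0.18 and did not pass (adjusted p = 0.213). Without the array set in the fit the Klrg1 difference was -2.27 (adjusted p = 0.107), that of FR3 Klrg1- from FR1 was -1.45 (0.0545), and the p of FR2 against FR1 was 0.292 at the same change.

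Izumo1r, the next gene to Gpr83 in the annotation of chromosome 9, was higher in FR3 Klrg1- than in FR2 and FR1, groups between which the Cd69 transcript overlapped. It stood at 10.04 on the FR3 Klrg1+ array, 10.23 and 10.30 in FR3 Klrg1- of the second set, 10.93 and 10.92 in FR3 Klrg1- of the first set, 10.17 and 9.97 in FR2, and 10.06 and 10.08 in FR1. FR3 Klrg1- of the first set lay above FR2 and FR1, which overlapped, and the FR3 Klrg1+ array lay below the FR3 Klrg1- arrays of its set. The rise was 0.86 ± 0.13 (SE, adjusted p = 0.00098, limma) in FR3 Klrg1- against FR2 and 0.86 ± 0.13 (adjusted p = 0.000358) against FR1. The changes in FR3 Klrg1+ against FR3 Klrg1- (-0.23 ± 0.16, adjusted p = 0.457) and in FR2 against FR1 (0.00 ± 0.13, 95% interval -0.28 to 0.27) did not pass. The folate receptors Folr1 and Folr2 and the sperm ligand Izumo1, which pairs with the Izumo1r protein on the egg, did not pass in any comparison, with medians between -0.23 and 0.05.

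Within the first set, the only one with CD62Lhi cells, Nrp1 was higher in CD62Llo cells with and without CD69 than in FR1. Its levels were 9.99 on the FR3 Klrg1+ array, 10.35 and 10.14 in FR3 Klrg1- of the second set, 11.03 and 11.06 in FR3 Klrg1- of the first set, 10.98 and 10.84 in FR2, and 9.85 and 9.97 in FR1. FR1 lay below the other arrays of its set by a wide margin, while FR3 Klrg1- and FR2 lay close together. Nrp1 rose by 1.13 ± 0.13 (SE, adjusted p = 3.72e-05, limma) in FR3 Klrg1- against FR1 and by 1.00 ± 0.13, a doubling, in FR2 against FR1 (adjusted p = 0.000328). The change was 0.13 ± 0.13 (95% interval -0.15 to 0.41) in FR3 Klrg1- against FR2 and -0.26 ± 0.16 (-0.60 to 0.09) in FR3 Klrg1+ against FR3 Klrg1-. Of 13 genes for neuropilin ligands, plexins and growth factor receptors, Sema4a, a semaphorin that binds Nrp1 on mouse Tregs, fell by 1.81 in FR3 Klrg1- against FR1 (SE 0.15, adjusted p = 1.33e-06), by 0.79 in FR3 Klrg1- against FR2 and by 1.03 in FR2 against FR1. Plxnb2 (0.69 ± 0.17) and Plxnd1 (0.69 ± 0.13), both semaphorin receptors, rose in FR3 Klrg1- against FR1. None of the 13 passed in FR3 Klrg1+ against FR3 Klrg1-, where 4.96% of all genes were called. The shares of all genes were 8.19% in FR3 Klrg1- against FR1, 4.75% against FR2 and 4.26% in FR2 against FR1.

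Capg, which caps the growing ends of actin filaments, was the member that rose with Klrg1. It stood at 10.24 on the FR3 Klrg1+ array and at 9.55 and 9.48 in FR3 Klrg1- of the second set. In the first set it was 10.63 and 10.68 in FR3 Klrg1-, 10.54 and 10.79 in FR2, and 10.25 and 10.36 in FR1. The FR3 Klrg1+ array was above the FR3 Klrg1- arrays of its set and below those of the first set. The rise was 0.73 ± 0.16 (SE, n = 1 and 2, adjusted p = 0.0191, limma), and 0.16 (adjusted p = 0.92) without the array set in the fit. The call was also lost when every row of the table was tested (adjusted p = 0.0684). In FR3 Klrg1- the changes were 0.35 ± 0.13 (adjusted p = 0.144) against FR1 and -0.01 ± 0.13 against FR2, and in FR2 against FR1 the change was 0.36 ± 0.13 (adjusted p = 0.152). The comparisons called 4.26% to 8.19% of all genes. Of 10 genes of the gelsolin family and of capping proteins, 1 passed, the actin-severing protein gene Scin. It fell by 0.88 in FR3 Klrg1+ (SE 0.21, adjusted p = 0.0276), and rose by 1.04 ± 0.17 in FR3 Klrg1- against FR1 and by 0.99 ± 0.17 against FR2.

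Capg is also expressed by myeloid cells, so their markers are given beside it. The 8 markers of macrophages and monocytes averaged 6.00 on the FR3 Klrg1+ array and 6.42 and 6.53 in FR3 Klrg1- of that set, and 1 of the 8 fell there (Mpeg1, -1.15 ± 0.17). Lyz2 stood at 4.50 on the FR3 Klrg1+ array and at 4.60 and 5.45 in FR3 Klrg1- of the second set. Ctss, the highest of the 8, read 10.60 on the FR3 Klrg1+ array and 11.15 and 10.97 on those FR3 Klrg1- arrays. Marker lists of B cells, NK cells, dendritic cells, neutrophils and platelets averaged between 4.67 and 5.88 on every grouped array. The CD8 T cell markers averaged 6.57 on the FR3 Klrg1+ array and 6.62 to 7.19 on the others, and the plasma cell markers 6.16 and 5.10 to 5.77. The 3 measured erythroid markers averaged 6.12 on the FR3 Klrg1+ array, against 5.84 and 5.88 in FR3 Klrg1- of its set. Within these lists, Flt3, a cytokine receptor of dendritic cell precursors (0.91 ± 0.15), rose in FR3 Klrg1+. So did Prdm1 (1.27 ± 0.26), which is also a factor of effector Tregs. The NK receptor Klrb1c (-0.66 ± 0.17) and the T cell costimulatory receptor Cd28 (-0.62 ± 0.16) fell. Of all genes, 4.96% were called there. Flt3 stood at 5.74 on the FR3 Klrg1+ array and at 4.81 and 4.85 in FR3 Klrg1- of its set. Klrb1c stood at 5.14, 5.78 and 5.83 on these arrays, and Mpeg1 at 4.65, 5.86 and 5.75. These levels lay below the lowest array median of 6.15, so they may be background. The part of other cells in the Capg difference was not tested.

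Members moved in a few shared patterns within the first set. Over its 6 arrays, Pearson's r was 0.99 between Gpr83 and Il2ra, 0.97 between Ikzf2 and Nrp1, 0.95 between Ikzf4 and Izumo1r, and -0.97 between Flicr and Ikzf2. For Foxp3, r ran from -0.61 with Ikzf4 and -0.41 with Izumo1r to 0.34 with Flicr. The genes most like Gpr83 were Polr3e, Eefsec, Taf1a, Hvcn1 and Mcrs1 (r at least 0.99), all with a smaller range than Gpr83, at 0.49 to 0.83 against 1.81. Those most like Ikzf2 were Cep290, Naip2, Smco4, Alox8 and Eea1 (r at least 0.99, ranges 1.15 to 2.86 against 0.83). Those most like Foxp3 were Mta2, Cspg5, Gm12592, Zfp292 and Fbxl18 (r 0.95 to 0.96), over a Foxp3 range of 0.29. These describe 6 arrays that share 3 groups and were ranked from all genes above a brightness limit, so the r values are a description only.

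Among genes of the wider Treg signature, most were higher in FR3 Klrg1- than in FR1. Of 16 other Treg signature genes, 12 rose and 2 fell in FR3 Klrg1- against FR1 (limma), where 4.39% of all genes rose and 3.79% fell. The median change of the list was 1.07, against 0.02 over all genes. The list was chosen with earlier results of these data known, so its counts are a description only. Of 7 T cell markers, 3 also rose in that comparison, namely Cd3e (0.49 ± 0.13), Cd4 (0.50 ± 0.13) and the kinase Zap70 (0.65 ± 0.13), with a median of 0.40 over the 7. The CD8 chain Cd8b1 (-0.55 ± 0.13) and the B cell receptor chain Cd79a (-0.68 ± 0.17) fell, and the part of these markers in the rises was not tested. In FR3 Klrg1- against FR2, 9 of the 16 rose and 2 fell (median 0.66), beside 2.81% and 1.94% of all genes. FR2 against FR1 had 6 higher and 2 lower (median 0.18), beside 1.96% and 2.30%. FR3 Klrg1+ against FR3 Klrg1- had 4 higher and 2 lower (median 0.28), beside 2.14% and 2.82%. Penk, the enkephalin precursor (4.11 ± 0.14), the inhibitory receptor Tigit (3.25 ± 0.17) and the costimulatory receptor Tnfrsf9 (2.52 ± 0.13) rose most in FR3 Klrg1- against FR1. Nt5e (CD73), an enzyme that makes adenosine, rose by 1.72 ± 0.14 there, and Cd81, a tetraspanin, rose by 1.61 ± 0.13 against FR2. Ecm1, an extracellular matrix protein, fell by 1.30 in FR2 against FR1 (SE 0.13), and Lrrc32, which carries latent TGF-beta to the Treg surface, fell by 0.98 in FR3 Klrg1+ (SE 0.16). Without the array set in the fit, 4 rose and 1 fell in FR3 Klrg1- against FR1, 2 rose in FR3 Klrg1- against FR2, 2 rose in FR2 against FR1 and none passed in FR3 Klrg1+, where the median was -0.11.

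**Figure D4:**
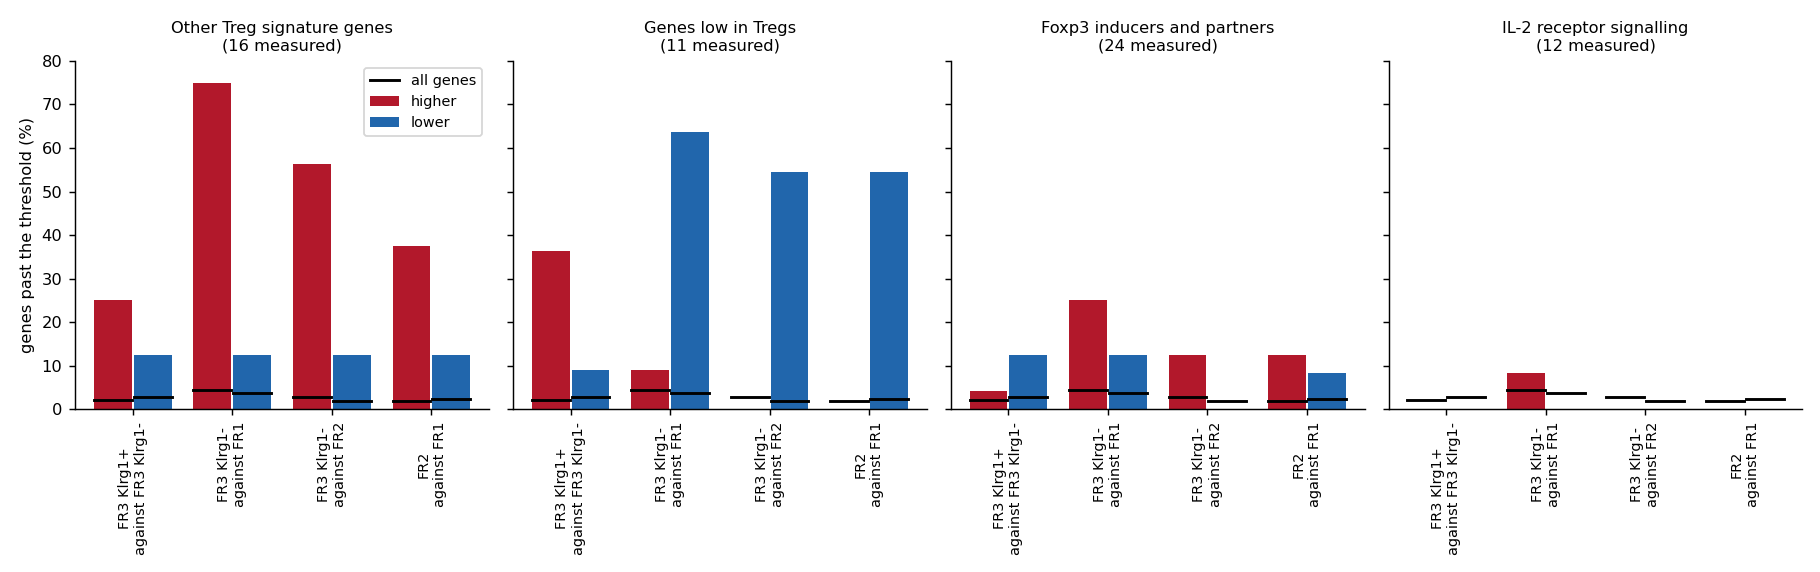
Share of each gene list that passed (percent of measured members; red: higher, blue: lower in the group named first; limma model blocked on array set), with the share of all genes as black lines. Of the 16 other Treg signature genes 12 rose in FR3 Klrg1- against FR1, and of the 11 genes low in Tregs 7 fell; in FR3 Klrg1+ 4 of those 11 rose.

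Genes that Tregs hold low relative to other CD4+ T cells fell in part in the 3 comparisons of the first set. This list was also chosen with earlier results of these data known. Of 11 measured, 7 fell and 1, Id2 (1.30 ± 0.19), rose in FR3 Klrg1- against FR1 (median -1.26). Of all genes, 3.79% fell and 4.39% rose there. In FR3 Klrg1- against FR2, 6 fell (median -0.72), beside 1.94% of all genes. FR2 against FR1 also had 6 that fell (median -0.51), beside 2.30%. In FR3 Klrg1+ against FR3 Klrg1-, 4 rose and 1 fell (median -0.09), beside 2.14% and 2.82% of all genes. The phosphodiesterase Pde3b (1.24 ± 0.23), the transcriptional inhibitor Id2 (0.84 ± 0.23) and the IL-7 receptor Il7r (0.83 ± 0.20) were among those that rose, and the actin crosslinker Actn1 fell by 2.18 (SE 0.15). Pde3b had fallen by 1.45 in FR3 Klrg1- against FR1 (SE 0.19). With no array set in the fit, 7 fell in FR3 Klrg1- against FR1, 2 in FR3 Klrg1- against FR2, 1 in FR2 against FR1 and none passed in FR3 Klrg1+, where the median was 0.20.

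Factors listed as inducers or partners of Foxp3 went both ways. The list does not separate those that raise Foxp3 from those that lower it. Of 24, 6 rose and 3 fell in FR3 Klrg1- against FR1 (median -0.09), where 4.39% of all genes rose and 3.79% fell. In FR3 Klrg1+ against FR3 Klrg1-, 1 rose and 3 fell, beside 2.14% and 2.82% of all genes. In FR3 Klrg1- against FR2, 3 rose and none fell, beside 2.81% and 1.94%, and in FR2 against FR1, 3 rose and 2 fell, beside 1.96% and 2.30%. Set against a list of 24, most of these counts were above those shares. The list was chosen with earlier results of these data known, so the counts are a description only. In FR3 Klrg1- against FR1 the oxygen-responsive factor Hif1a (1.31 ± 0.14) and the calcium-driven factor Nfatc1 (1.19 ± 0.14) rose, while Gata1 (-1.69 ± 0.14) and the repressor Bach2 (-1.28 ± 0.16) fell. In FR3 Klrg1+ the factor Gata3 rose by 1.33 ± 0.16, and the histone deacetylase Hdac9 (-1.86 ± 0.17), Foxp1 (-0.94 ± 0.16), a forkhead relative of Foxp3, and Hif1a (-0.82 ± 0.17) fell. In the fit that left out the array set, 2 fell in FR3 Klrg1- against FR1, 1 fell in FR2 against FR1, and none passed in the other comparisons.

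Of 8 enzymes and readers of DNA methylation, which keeps the Foxp3 locus open or shut, Tet1, which starts demethylation, fell by 1.13 in FR3 Klrg1+ (SE 0.19, adjusted p = 0.00435, limma). That fall rests on 1 array at 6.72, against 7.97 and 7.72 in FR3 Klrg1- of its set. The array placed in no group, which also read high for Klrg1, stood at 7.70. Tet1 also fell by 0.56 in FR3 Klrg1- against FR1 (SE 0.16). Tet3 fell by 0.89 there (SE 0.13) and by 0.64 against FR2 (SE 0.13). Uhrf1, which carries methylation through replication, rose by 0.61 ± 0.17 in FR3 Klrg1- against FR1, and the methyl-binding protein Mbd2 fell by 0.46 against FR2 (SE 0.12). In FR2 against FR1, 0 of 8 passed (limma), where 4.26% of all genes were called. The other comparisons called 1 of 8 in FR3 Klrg1+ (4.96% of all genes), 3 in FR3 Klrg1- against FR1 (8.19%) and 2 in FR3 Klrg1- against FR2 (4.75%). None of the 8 passed in any comparison once the array set was left out of the fit.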

How the data were processed

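Gene expression of sorted Tregs was measured on Affymetrix Mouse Gene ST 1.0 arrays from 20 to 50 ng RNA. The deposited values are log2 intensities made by the authors with RMA, per the submitters' processing notes. RMA corrects background, normalizes and summarises probes. The version, and whether all arrays were normalized together, are not given in the sources used here. Their range, 1.54 to 14.93, was checked against that unit.

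Of 35556 probe sets, 21789 had 1 symbol, 1621 several and 12146 were unnamed here. The brightest probe set of each symbol gave 19938 genes. No intensity filter was applied. Groups came from the marker text in the labels, and 1 array whose title and marker text disagreed was left out. Arrays are labelled as biological replicates, and their small number limits every estimate.

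limma 3.58.1 in R 4.3.3 was fitted to the 9 grouped arrays with the array set as an additive block, which gives the fold change within the set holding both groups. p-values were moderated and adjusted by Benjamini-Hochberg over all genes. Intervals are 95% from the moderated fit. The fit was tested on simulated data. The members, the array sets, the comparisons, the gene lists and the naming rule were chosen with earlier results of these data known. The rule named all members, up to 4 called genes per list and comparison, and the 5 genes most correlated with Foxp3, Gpr83 and Ikzf2. Genes named from a list where it held 1 or 2 calls, Cxcr5 and Ccr7, Lyz2, Ppp1r3f, Gpkow, single markers of other cells and the sort markers were named after their values were seen. Alternatives were no array set, 1 set alone, an intensity trend, leaving out genes under percentile 40, quantile normalization, every named probe set, every row, weighted arrays, a block on replicate number and leaving out each array. The transcript for CD62L was not analysed here. Upstream sequences are RefSeq's on GRCm38.p6.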

Additional observations from a re-analysis of the deposited data

How the results depend on the processing

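Of 670 values of single members under the alternatives, 612 kept their direction and their side of the threshold, 33 lost their call, 4 gained one and 21 turned direction. Without the array set in the fit, 0 members were called in each comparison (limma, against 3, 6, 2 and 4 with it), and genes called were 22 in FR3 Klrg1+ against FR3 Klrg1-, 439 in FR3 Klrg1- against FR1, 55 in FR3 Klrg1- against FR2 and 52 in FR2 against FR1, against 989, 1632, 948 and 850 with it. Directions that turned in that fit were Il2ra (0.33) and Il2rb (-0.47) in FR3 Klrg1+ against FR3 Klrg1-, Il2rb (-0.33) and Capg (-0.22) in FR3 Klrg1- against FR1, and Flicr (0.33), Il2rb (-0.019) and Nrp1 (-0.27) in FR3 Klrg1- against FR2, none of which passed. Over every row of the table, where 35556 were tested, 511, 355 and 315 were called in FR3 Klrg1+ against FR3 Klrg1-, FR3 Klrg1- against FR2 and FR2 against FR1, and 1 member in the second of these. FR2 against FR1 gave 1331 genes in the first set alone and 1401 without dim genes, and FR3 Klrg1- against FR2 gave 1618 with array weights; the cause was not tested.

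With the replicate number as a block in the first set, FR2 against FR1 gave 1669 genes and FR3 Klrg1- against FR2 gave 1586, and Ikzf4 passed in FR3 Klrg1- against FR2 (adjusted p = 0.0413). Deviations of same-numbered arrays correlated at 0.18, 0.14 and 0.02 between groups. These values do not settle whether the numbers pair the samples, and the fit blocked on array set did not pair them. No paired analysis was possible because the groups share no replicate number within the second set, for FR3 Klrg1+.

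Leaving out each array in turn gave 3 members (FR3 Klrg1+ against FR3 Klrg1-), 5 to 6 (FR3 Klrg1- against FR1), 1 to 2 (FR3 Klrg1- against FR2) and 2 to 4 (FR2 against FR1), and 721 to 1553, 910 to 2063, 302 to 1318 and 253 to 1331 genes. Small changes that turned direction, none of which passed, had these ranges over the arrays left out. Foxp3 ran from -0.12 (without FR1 replicate 1) to 0.16 in FR2 against FR1, with -0.08 without FR2 replicate 1, from -0.26 to 0.026 in FR3 Klrg1- against FR1, and from -0.30 to 0.013 in FR3 Klrg1+ against FR3 Klrg1-. Ikzf4 ran from -0.15 to 0.036 in FR2 against FR1 and from -0.15 to 0.088 in FR3 Klrg1+ against FR3 Klrg1-. Izumo1r ran from -0.10 to 0.10 in FR2 against FR1 (0.0049 without FR1 replicate 2), Capg from -0.14 to 0.12 in FR3 Klrg1- against FR2 (0.015 without FR3 Klrg1- replicate 1), and Il2ra from -0.079 to 0.019 in FR3 Klrg1+ against FR3 Klrg1-. Quantile normalization turned Ikzf4 to 0.012 and Izumo1r to 0.057 in FR2 against FR1, and Ikzf4 to 0.020 in FR3 Klrg1+ against FR3 Klrg1-. No detection calls come with these values, so signal over background could not be judged.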

Other observations

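The array placed in no group, titled FR3 with the marker text CD62Lhi CD69- Klrg1-, correlated at 0.973 to 0.975 with the arrays of the second set and at 0.904 to 0.917 with those of the first. On it Foxp3 stood at 9.85, Flicr at 6.52, Gpr83 at 6.87 and Capg at 10.15. Flicr and Gpr83 were thus below all FR3 Klrg1-, FR2 and FR1 arrays and above the FR3 Klrg1+ array (5.31 and 6.33). Ikzf2 read 11.49, Ikzf4 8.11, Il2ra 11.05, Il2rb 10.65, Nrp1 9.88 and Izumo1r 9.81. The level of Prdm1, a factor of effector Tregs, 9.14, equalled that of the FR3 Klrg1+ array to 2 decimals, against 5.80 to 8.01 on the Klrg1- arrays. The labels do not settle its group.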
